A study of Mus musculus with 12 samples.

Results

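The genes described here are 40 cell cycle and proliferation genes, 18 of them genes of DNA replication and 22 of them genes of mitosis, out of 40840 genes with a value in every library. They were listed by name and found by gene symbol, and all 40 were present. RNA was sequenced from the liver immune cell fraction of mice labelled C57BL/6, the WT mice being of C57BL/6J background by the methods, and the labels call this material hepatic macrophages. The fraction was parted from hepatocytes by a density step without a sort, and markers of other cell types were present in it. The 4 groups were wild type mice on normal chow diet (WT-NCD) or high-fat diet (WT-HFD), and mice lacking caspase-11 on the same diets (Casp11-/- NCD and Casp11-/- HFD), with 3 mice and 3 libraries in each. All mice were male. At 8 to 10 weeks of age they were kept on chow or moved to HFD, and 12 weeks on that diet followed. The questions asked were whether diet or caspase-11 deficiency was accompanied by a different level of the genes with which cells copy and divide their genome, and whether replication genes and mitosis genes differed in this.

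A dividing cell first copies its DNA in S phase and then separates the copies in mitosis. Before S phase the licensing factors Cdc6 and Cdt1 load the ring of the MCM subunits Mcm2 to Mcm7 onto origins of replication, and cyclin E with its kinase, together with Cdc45 and the GINS complex, turns this ring into an active helicase. Copying then needs deoxynucleotides (ribonucleotide reductase, Tyms, Tk1) and the sliding clamp Pcna. Entry into mitosis is driven by Cdk1 with cyclins A and B and by the Polo and Aurora kinases, and exit from it by the anaphase-promoting complex with its activator Cdc20 and the conjugating enzyme Ube2c. Most cells of an adult liver rest outside the cycle, so transcripts of these genes in a bulk sample come mainly from the minority that divides. In such a sample, fewer dividing cells and less of the RNA per cell cannot be told apart.

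Promoter sequences from RefSeq (GRCm38.p6, 250 bases before to 50 bases after the start site) were at hand for 33 of the 40 genes, 15 of replication and 18 of mitosis. None was used for Gins2, Ccna2, Tpx2, Mcm4, Kif20a, Aurkb and Ccne2. E2F factors are known as regulators of S phase genes, and the CCAAT box (bound by NF-Y) and the cell cycle genes homology region (CHR, bound by the MuvB complex) as elements of G2 and mitosis genes. Letters were searched on both strands. For E2F a match was the run TTCCCGC, a further form that was included in the search and reads TTCGCGC, or the third form in use there, TTGGCGC. The CCAAT box was matched by its 5 letters alone. For the CHR a match was the run TTTGAA, or the related form that reads TTTAAA. Neighbouring matches may share bases, and where a gene had several start sites the first window in the table was read. E2F letters were found in 8 of 15 replication promoters (53.3%) and 3 of 18 mitosis promoters (16.7%), against 8.21% of the 27025 promoters of all genes. The CHR letters were found in 6 replication promoters (40%) and 16 mitosis promoters (88.9%), against 27.8% of all, and the CCAAT box in 10 (66.7%) and 16 (88.9%), against 37.9%. Both the CCAAT box and the CHR were found in 15 of 18 mitosis promoters (83.3%), 4 of 15 replication promoters (26.7%) and 10.9% of all. These are matches of letters, not measured binding sites, and no test was made of them.

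**Figure D1:**
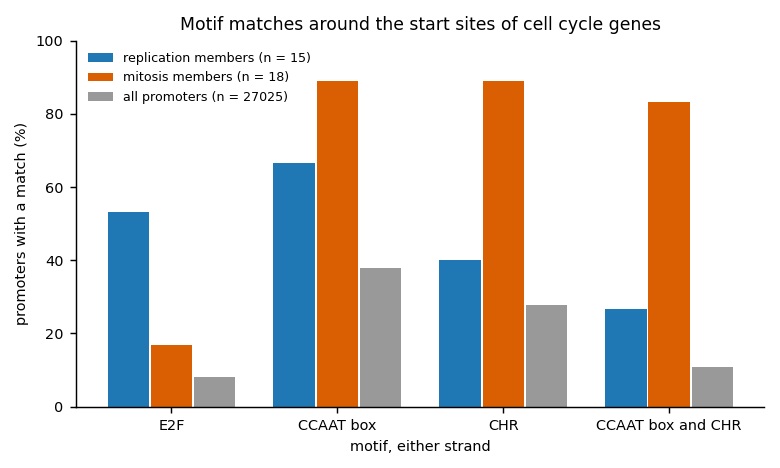
Share of promoters (y axis, percent) with a letter match to each motif on either strand (x axis), for 15 replication genes (blue), 18 mitosis genes (orange) and all 27025 promoters (grey). E2F letters are most frequent in the replication genes (53.3%) and CHR letters in the mitosis genes (88.9%).

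The promoters of the highest-mean replication and mitosis genes are printed to show where the letters of each class lie, or that none do. That of Cdt1 was added after its values were seen, because it is described further below. In the replication genes the capitals mark the E2F letters. Mcm3 (chr1:20820263-20820562, minus strand) had 3 matches and Cdt1 (chr8:122567765-122568064, plus strand) had 2, all of them after the start site. No match lay in the window of Pcna (chr2:132253131-132253430, minus strand).
Cdt1: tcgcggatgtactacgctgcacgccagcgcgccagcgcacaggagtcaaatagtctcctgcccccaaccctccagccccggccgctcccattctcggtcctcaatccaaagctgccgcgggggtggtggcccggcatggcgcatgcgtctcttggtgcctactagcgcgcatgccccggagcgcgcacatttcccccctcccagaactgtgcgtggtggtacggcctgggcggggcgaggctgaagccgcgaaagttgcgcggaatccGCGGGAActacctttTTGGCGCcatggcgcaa
Mcm3: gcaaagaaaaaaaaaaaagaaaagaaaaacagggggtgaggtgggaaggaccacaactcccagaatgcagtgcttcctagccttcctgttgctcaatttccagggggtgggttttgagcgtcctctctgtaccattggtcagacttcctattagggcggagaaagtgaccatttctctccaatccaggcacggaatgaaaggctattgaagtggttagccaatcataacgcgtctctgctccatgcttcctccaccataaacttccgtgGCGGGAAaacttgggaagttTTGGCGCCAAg
Pcna: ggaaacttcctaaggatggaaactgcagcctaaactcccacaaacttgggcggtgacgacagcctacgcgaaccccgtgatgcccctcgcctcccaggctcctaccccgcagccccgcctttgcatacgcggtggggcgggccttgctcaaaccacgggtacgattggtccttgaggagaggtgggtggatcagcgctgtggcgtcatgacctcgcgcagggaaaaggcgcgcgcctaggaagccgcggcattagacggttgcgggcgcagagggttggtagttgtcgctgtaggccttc

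In the mitosis genes the capitals mark CCAAT boxes and CHR letters. Ube2c (chr2:164769679-164769978, plus strand) had 7 matches, its 1 CHR match at 29 bases before the start site, and Mki67 (chr7:135716330-135716629, minus strand) had 5, its 2 CHR matches at 116 and 98 bases before the start site, and 1 E2F match that is not marked.
Ube2c: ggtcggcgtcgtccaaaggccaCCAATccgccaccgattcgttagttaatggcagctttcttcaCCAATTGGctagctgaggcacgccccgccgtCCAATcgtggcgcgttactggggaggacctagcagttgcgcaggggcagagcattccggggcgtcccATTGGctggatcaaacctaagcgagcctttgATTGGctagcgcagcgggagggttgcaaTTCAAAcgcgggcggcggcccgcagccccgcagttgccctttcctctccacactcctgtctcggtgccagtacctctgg
Mki67: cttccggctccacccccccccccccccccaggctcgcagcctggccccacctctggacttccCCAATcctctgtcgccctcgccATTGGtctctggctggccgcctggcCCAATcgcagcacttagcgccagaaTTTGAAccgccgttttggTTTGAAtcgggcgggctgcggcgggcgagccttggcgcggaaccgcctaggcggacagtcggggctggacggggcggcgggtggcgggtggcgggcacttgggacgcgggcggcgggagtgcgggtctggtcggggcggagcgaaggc

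The deposited values are transcripts per 1000000 (TPM), a level per length that can be compared between genes, and every file had a lowest value of 1.01 TPM, here called the floor. Read counts were not used here, so the depth behind a value is unknown and no counting interval is given. WT-NCD replicate 3 stood apart: 39677 genes were above the floor in it, against 12940 to 18775 in the other 11 libraries, and its correlation with them over genes was -0.27 to -0.07, against 0.85 to 0.99 among those 11. Casp11-/- NCD replicate 2 was unlike its group in having 22.3% of its TPM in protein-coding genes, against 36.7% and 42.4% in replicates 1 and 3. That share was 33.9% and 37.8% in WT-NCD replicates 1 and 2, 14.5% in WT-NCD replicate 3, and 15.7% to 25.2% in the 6 HFD libraries. Casp4, which encodes caspase-11, was at 12.1, 15.6 and 8.94 TPM in WT-NCD, 7.09, 5.60 and 11.4 in WT-HFD, 4.93, 2.56 and 15.2 in Casp11-/- NCD and 2.78, 8.68 and 4.73 in Casp11-/- HFD. The genotypes overlapped, a gene's TPM does not show which exons were read, and one heading among the Casp11-/- HFD files (replicate 2) shortened the genotype, so genotypes are given as labelled. Of 12 macrophage markers 10 to 12 were above the floor in each library, but so were all 6 hepatocyte, 7 B cell and 6 NK cell markers.

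The genes of both classes were detected at low to moderate levels, and replication genes were the higher class. Of 40 members, 23 were above the floor in all 12 libraries, 12 of replication and 11 of mitosis. Over the 11 libraries without WT-NCD replicate 3, the mean level of a replication gene had a median of 5.59 TPM (1.01 to 36.5 TPM) and that of a mitosis gene a median of 2.85 TPM (1.03 to 11.5 TPM). The number of members above the floor was 31 in all 6 NCD libraries and 23 in all 6 HFD libraries. Ccne2, Kif20a and Cenpf were above the floor in fewer than 3 libraries and were not tested, which left 37 members, 17 of replication and 20 of mitosis. Beyond the genes named below, 16 further members lay between 1.01 and 12.8 TPM in every library, the highest of these values being that of Gins2 in WT-NCD replicate 3.

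**Figure D2:**
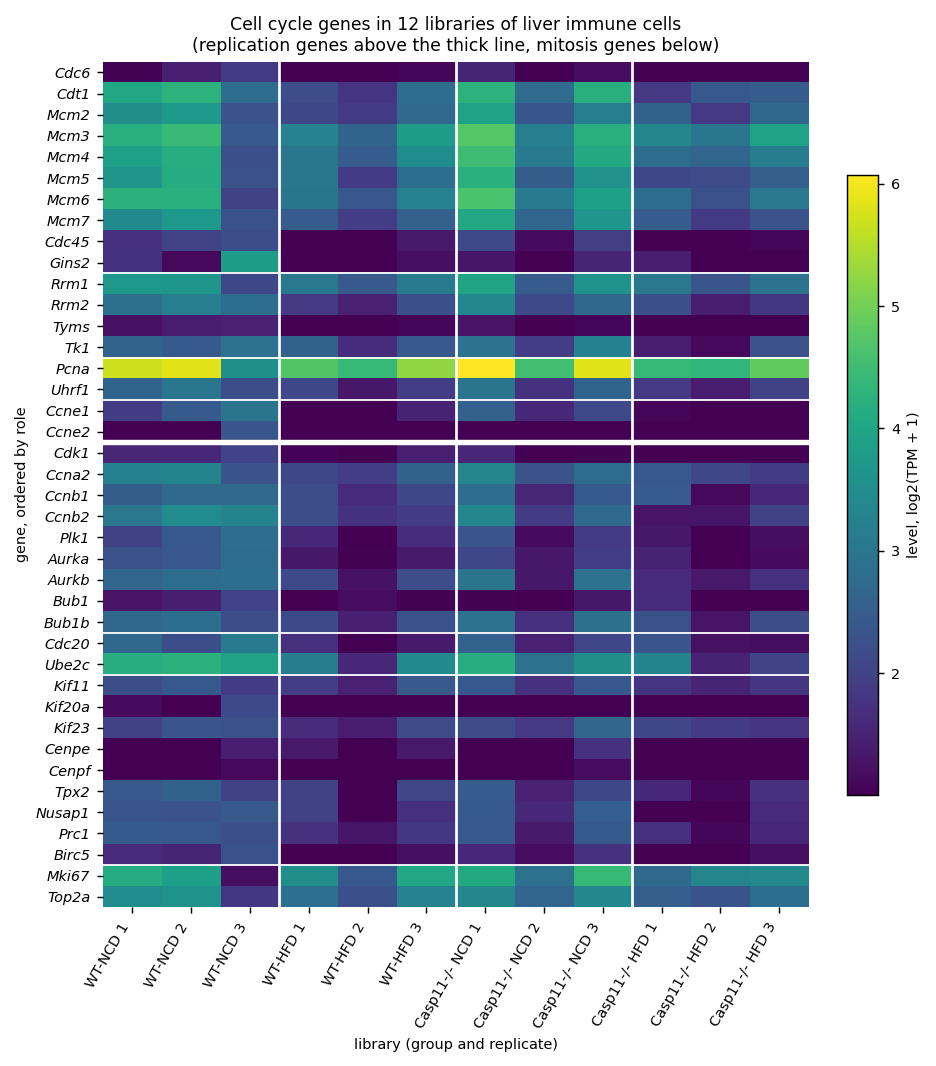
Heat map of log2(TPM + 1) for the 40 genes (y axis, grouped by role, replication above the thick line) in the 12 libraries (x axis, groups separated by white lines). Pcna is the brightest gene, most genes are darker in the HFD libraries and in Casp11-/- NCD replicate 2, and the third column shows the different pattern of WT-NCD replicate 3.

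Among the licensing and helicase genes, the 6 MCM subunits had levels of the same order. Mcm3 was at 17.4, 20.5 and 4.38 TPM in WT-NCD, 8.51, 5.24 and 13.01 in WT-HFD, 25.6, 8.09 and 17.4 in Casp11-/- NCD and 9.02, 6.97 and 14.4 in Casp11-/- HFD, in the order of replicates 1 to 3 that is kept below. Mcm4 was at 14.1, 17.0 and 3.71 TPM in WT-NCD, 7.01, 4.61 and 10.03 in WT-HFD, 21.8, 7.64 and 15.9 in Casp11-/- NCD and 5.98, 5.30 and 7.77 in Casp11-/- HFD. In each gene both diets' ranges overlapped only through WT-NCD replicate 3 and Casp11-/- NCD replicate 2, which lay within the HFD range or below it. Mcm6 was at 18.2, 17.6 and 3.003 TPM in WT-NCD, 6.85, 4.24 and 8.58 in WT-HFD, 23.8, 7.52 and 13.6 in Casp11-/- NCD and 5.91, 3.88 and 7.08 in Casp11-/- HFD. Mcm2 was at 10.4, 12.4 and 3.95 TPM in WT-NCD, 3.32, 2.67 and 5.65 in WT-HFD, 14.2, 4.17 and 8.19 in Casp11-/- NCD and 4.96, 2.61 and 5.62 in Casp11-/- HFD. Mcm5 was at 11.9, 16.7 and 3.80 TPM in WT-NCD, 7.005, 2.76 and 6.13 in WT-HFD, 17.8, 4.66 and 10.9 in Casp11-/- NCD and 3.32, 3.50 and 4.83 in Casp11-/- HFD. All 3 had their 4 highest values in WT-NCD replicates 1 and 2 and Casp11-/- NCD replicates 1 and 3. This was not particular to the MCM genes. Those 4 NCD libraries lay above all 6 HFD libraries in 25 members, 13 of replication and 12 of mitosis. The share of all genes that did so is not given here. With WT-NCD replicate 3 and Casp11-/- NCD replicate 2 left out, the test described below called 45.8% of all genes lower on HFD. Setting those libraries aside was a choice made after the data were seen. Mcm7 was at 9.83, 12.1 and 3.83 TPM in WT-NCD, 4.54, 2.79 and 4.91 in WT-HFD, 15.8, 5.31 and 11.5 in Casp11-/- NCD and 4.60, 2.63 and 3.95 in Casp11-/- HFD. Within a library the highest subunit was 1.46 to 3.65 times the lowest, the widest spread being in Casp11-/- HFD replicate 3, and Mcm3 was the highest in 11 of the 12 libraries.

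Cdt1 (chr8:122568015-122573554 of GRCm38), which brings the MCM ring to origins and is destroyed in S phase, had 15.5, 18.5 and 6.07 TPM in WT-NCD, 3.63, 2.38 and 6.01 in WT-HFD, 18.6, 5.90 and 17.2 in Casp11-/- NCD and 2.61, 4.32 and 4.57 in Casp11-/- HFD. The 4 values above 15 TPM were all from NCD livers, the 6 HFD values lay at 2.38 to 6.01 TPM, WT-NCD replicate 3 lay just above them and Casp11-/- NCD replicate 2 within them. Cdc45, a part of the active helicase, was at 2.29, 3.11 and 3.65 TPM in WT-NCD, 1.01, 1.01 and 1.54 in WT-HFD, 3.38, 1.22 and 2.88 in Casp11-/- NCD and 1.01, 1.01 and 1.15 in Casp11-/- HFD, with 4 of the 6 HFD libraries at the floor.

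For nucleotide supply, Rrm1 and Rrm2, the large and small subunits of ribonucleotide reductase, were measured side by side. Rrm1 was at 12.03, 11.8 and 3.33 TPM in WT-NCD, 7.19, 4.36 and 7.49 in WT-HFD, 14.7, 4.52 and 11.3 in Casp11-/- NCD and 7.24, 4.06 and 6.62 in Casp11-/- HFD. Rrm2, whose protein is made in S phase, was at 6.39, 8.01 and 6.10 TPM in WT-NCD, 2.61, 1.78 and 3.76 in WT-HFD, 9.42, 3.35 and 5.53 in Casp11-/- NCD and 3.70, 1.62 and 2.54 in Casp11-/- HFD. Both were highest in Casp11-/- NCD replicate 1, and Rrm1 exceeded Rrm2 in every library but WT-NCD replicate 3. Pcna (chr2:132249162-132253314), the clamp that holds DNA polymerase on its template, was the member with the highest level: 50.9, 56.9 and 10.6 TPM in WT-NCD, 24.9, 20.0 and 36.5 in WT-HFD, 66.5, 22.4 and 56.1 in Casp11-/- NCD and 20.2, 19.3 and 27.7 in Casp11-/- HFD. Its WT-NCD replicate 3 value was the lowest of all 12, and Casp11-/- NCD replicate 2 lay within the HFD range of 19.3 to 36.5 TPM. Uhrf1, which is needed for the copying of DNA methylation to the new strand, was at 5.21, 7.03 and 3.58 TPM in WT-NCD, 3.28, 1.52 and 2.80 in WT-HFD, 6.79, 2.30 and 5.26 in Casp11-/- NCD and 2.59, 1.66 and 2.96 in Casp11-/- HFD. Of the cyclins that start S phase, Ccne1 was at 2.76, 4.45 and 6.80 TPM in WT-NCD, 1.01, 1.01 and 1.84 in WT-HFD, 4.92, 2.01 and 3.38 in Casp11-/- NCD and 1.11, 1.01 and 1.01 in Casp11-/- HFD, above 2 TPM in every NCD library and below it in every HFD library. Ccne2 was above the floor in WT-NCD replicate 3 alone, at 4.09 TPM.

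Of the mitotic cyclins and kinases, Ccna2 (cyclin A2, which serves both S phase and mitosis) was at 8.45, 8.80 and 3.94 TPM in WT-NCD, 3.32, 2.80 and 4.99 in WT-HFD, 8.95, 3.91 and 5.95 in Casp11-/- NCD and 4.26, 3.24 and 2.71 in Casp11-/- HFD. Ccnb2 (cyclin B2) was at 7.04, 9.97 and 8.64 TPM in WT-NCD, 3.69, 2.38 and 2.69 in WT-HFD, 9.04, 2.72 and 5.64 in Casp11-/- NCD and 1.41, 1.44 and 2.99 in Casp11-/- HFD. Aurka, the kinase of the spindle poles, was at 3.82, 4.20 and 5.92 TPM in WT-NCD, 1.52, 1.04 and 1.60 in WT-HFD, 3.26, 1.53 and 2.83 in Casp11-/- NCD and 1.84, 1.01 and 1.22 in Casp11-/- HFD. For Ccnb2 and Aurka, WT-NCD replicate 3 lay with its group and above every HFD library, unlike in the MCM genes, while Casp11-/- NCD replicate 2 again lay in the HFD range. Among the genes of mitotic exit, Ube2c (chr2:164769898-164778822) was at 17.0, 18.3 and 14.3 TPM in WT-NCD, 7.85, 2.03 and 9.79 in WT-HFD, 16.8, 6.51 and 10.4 in Casp11-/- NCD and 8.67, 1.86 and 3.13 in Casp11-/- HFD. Cdc20 was at 5.62, 3.70 and 7.46 TPM in WT-NCD, 2.28, 1.01 and 1.60 in WT-HFD, 5.09, 1.79 and 3.27 in Casp11-/- NCD and 4.08, 1.34 and 1.30 in Casp11-/- HFD. All 3 WT-NCD libraries exceeded all 3 WT-HFD libraries in both genes, whereas the Casp11-/- groups overlapped.

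Among the spindle genes, the motor Kif11 was at 3.68, 4.30 and 2.75 TPM in WT-NCD, 2.78, 1.77 and 4.39 in WT-HFD, 4.27, 2.31 and 4.20 in Casp11-/- NCD and 2.40, 1.89 and 2.501 in Casp11-/- HFD. Kif23, a motor of the midzone and of cytokinesis, was at 2.95, 4.09 and 3.83 TPM in WT-NCD, 2.10, 1.63 and 3.52 in WT-HFD, 3.47, 2.61 and 5.41 in Casp11-/- NCD and 3.23, 2.72 and 2.47 in Casp11-/- HFD. The diets overlapped widely in both. Nusap1, which bundles spindle microtubules, was at 4.06, 3.96 and 4.36 TPM in WT-NCD, 3.04, 1.01 and 2.26 in WT-HFD, 4.44, 1.99 and 4.72 in Casp11-/- NCD and 1.01, 1.01 and 2.09 in Casp11-/- HFD. It was another of the 18 members with all 3 WT-NCD libraries above the WT-HFD libraries. Of the chromosome proteins, Mki67 (the Ki-67 antigen, in common use as a proliferation marker) was at 16.6, 13.5 and 1.30 TPM in WT-NCD, 10.4, 4.30 and 15.3 in WT-HFD, 15.9, 6.50 and 20.0 in Casp11-/- NCD and 5.78, 8.91 and 9.49 in Casp11-/- HFD. Top2a, the topoisomerase that untangles the copied strands, was at 9.97, 11.2 and 2.54 TPM in WT-NCD, 6.29, 3.71 and 8.56 in WT-HFD, 9.03, 5.36 and 9.38 in Casp11-/- NCD and 4.85, 3.97 and 6.20 in Casp11-/- HFD. Mki67 and Top2a were lowest in WT-NCD replicate 3, which for Ube2c, Ccnb2 and Aurka was among the higher libraries, and WT-HFD replicate 3 exceeded WT-NCD replicate 2 in Mki67.

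Between the diets, every tested member had a lower estimate on HFD on the TPM scale, but no member passed the test when all 12 libraries and all genes above the floor in 3 or more of them were kept. All tests were made with limma on log2(TPM + 1), over 19498 genes in the fit of all 12 libraries and over 17950 genes without WT-NCD replicate 3, with Benjamini-Hochberg adjustment over all genes of a fit and a call at adjusted p under 0.05. The added 1 draws estimates of genes near the floor towards 0. Over both genotypes, 37 of 37 members were lower on HFD, where 86% of all genes tested were. At an unadjusted p under 0.05 by limma, 18 of 37 members were lower, where 2956 of 19498 genes were. After adjustment 0 members were called, where 0.513% of all genes tested were called lower. The smallest adjusted p was 0.129 (Ccne1, log2 fold change -1.17 ± 0.28 SE). Ccne1 was above the floor in 2 of the 6 HFD libraries. The median log2 fold change was -0.77 for replication and -0.61 for mitosis genes, beside -0.61 for all genes, so relative to all genes the classes were at -0.16 and -0.01. On this scale most genes were lower on HFD. With protein-coding TPM rescaled to 1 total in each library the median of all genes was -0.11, and with the highest 1% of genes left out and the rest rescaled it was -0.02. Estimates then turned positive for 2 of 31 members (Mki67 and Top2a) and for 8 of 31 (also Mcm3, Rrm1, Pcna, Ccnb1, Kif11 and Kif23).

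Without WT-NCD replicate 3, 13 of 37 members were called lower on HFD over both genotypes, 9 of 17 replication and 4 of 20 mitosis genes, where 17.3% of all genes were. Leaving out Casp11-/- NCD replicate 2 in its place called 7 members, where 7.21% of all genes were called lower, and leaving out any other single library called 0. Cdt1 had the largest estimate at -1.71 ± 0.37 (log2 fold change ± SE, limma adjusted p = 0.00541). Of the helicase genes, those called were Mcm6 at -1.27 ± 0.36 (0.0249), Mcm7 at -1.25 ± 0.36 (0.0256), Mcm5 at -1.25 ± 0.38 (0.0298), Mcm2 at -1.09 ± 0.37 (0.0454), Mcm4 at -1.05 ± 0.36 (0.0449) and Cdc45 at -0.73 ± 0.21 (0.0233), with limma's adjusted p in parentheses. Thus 7 of 10 licensing and helicase genes were called. Mcm3 missed the threshold at -0.85 ± 0.37 (adjusted p = 0.101). Of the other replication genes, Ccne1 (-1.04 ± 0.24, adjusted p = 0.00838) and Rrm2 (-1.05 ± 0.35, 0.0424) were called and Pcna (-0.98 ± 0.36, 0.0552) was not. Ccne1 and Cdc45 were each above the floor in only 2 HFD libraries, so they passed the filter through NCD. Identical floor values also narrow their HFD spread, a limit on these calls.

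The 4 called mitosis genes came from 3 role groups. Their log2 fold changes (± SE, with limma's adjusted p in parentheses) were -1.37 ± 0.42 for Ube2c (0.0294), -1.20 ± 0.35 for Ccnb2 (0.0261), -0.86 ± 0.29 for Nusap1 (0.044) and -0.82 ± 0.24 for Aurka (0.0245). The common proliferation markers Mki67 (-0.66 ± 0.38, adjusted p = 0.199) and Top2a (-0.65 ± 0.35, 0.178) did not pass. Neither did Cdc20 (-0.79 ± 0.31, 0.0717), Ccna2 (-0.87 ± 0.35, 0.0748), Kif11 (-0.42 ± 0.31, 0.296) or Kif23 (-0.37 ± 0.31, 0.357). With Casp11-/- NCD replicate 2 also left out, a choice made after the data were seen, 29 of 37 members were called lower (14 replication, 15 mitosis), where 45.8% of all genes were. In TPM, 2 of 37 members had all 5 remaining NCD libraries above all 6 HFD libraries when only WT-NCD replicate 3 was left out, where 5.60% of all genes did.

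**Figure D3:**
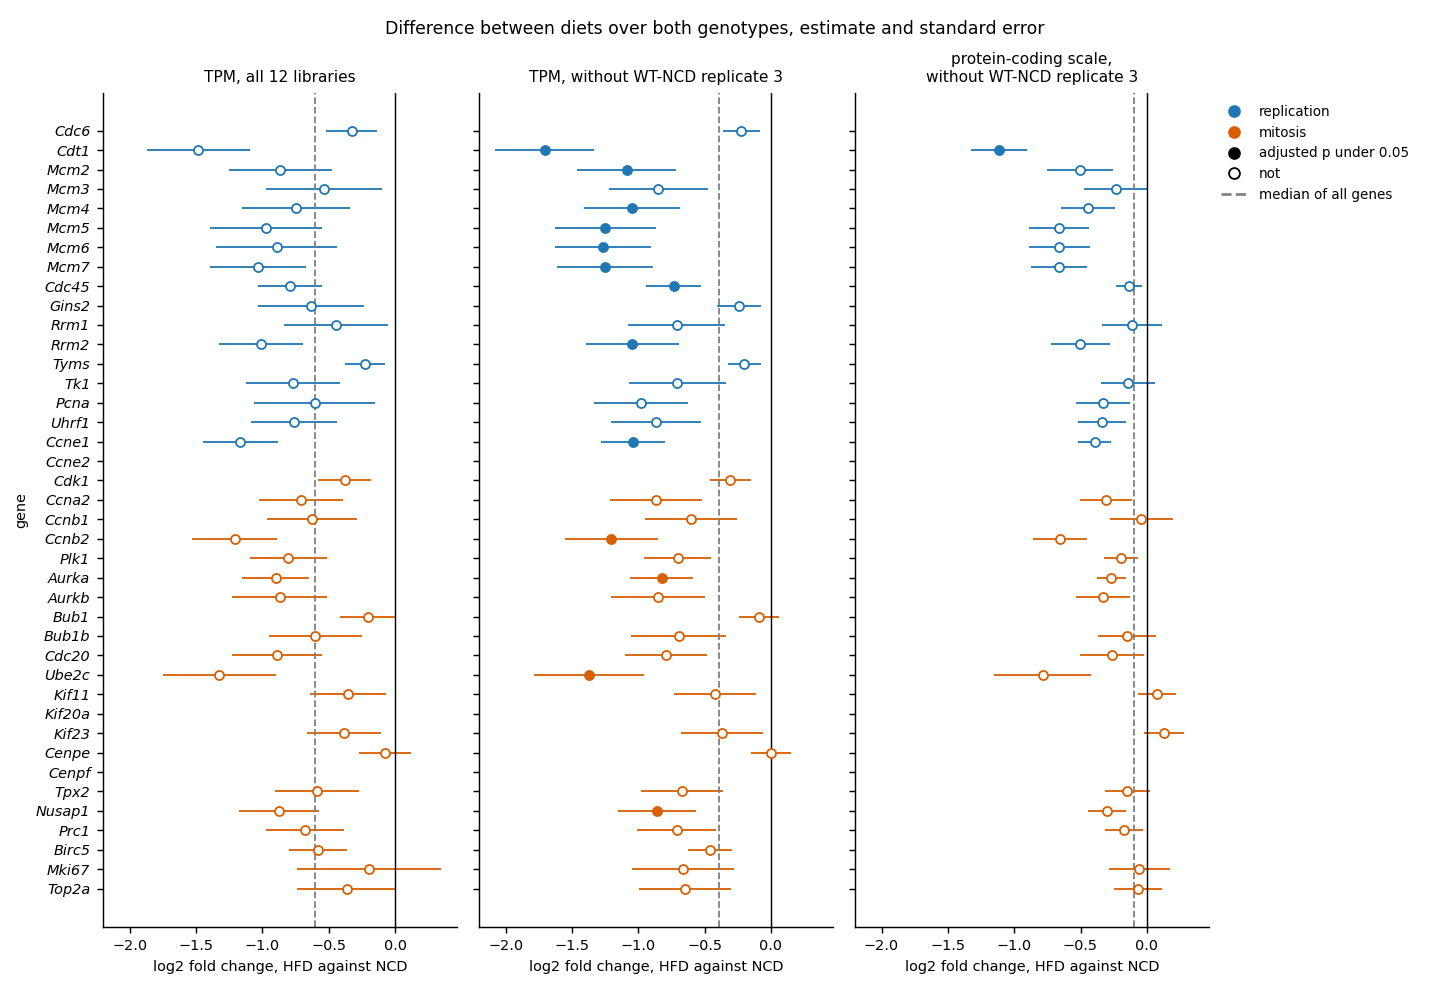
Log2 fold change of HFD against NCD over both genotypes with its standard error (x axis) for each gene (y axis), in all 12 libraries (left), without WT-NCD replicate 3 (middle) and on the protein-coding scale without that library (right). Filled points passed adjusted p under 0.05, the dashed line is the median of all genes tested, and 0, 13 and 1 genes are filled from left to right.

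Rescaling each library to its protein-coding TPM, which takes out the difference in protein-coding share, left Cdt1 as the 1 called member. Its level per 1000000 protein-coding TPM was 44.6, 47.9 and 41.7 in WT-NCD, 14.5, 14.9 and 23.4 in WT-HFD, 49.7, 25.9 and 39.96 in Casp11-/- NCD and 13.3, 18.1 and 19.5 in Casp11-/- HFD. All 6 NCD libraries, both of those that stood apart among them, lay above all 6 HFD libraries (25.9 to 49.7 against 13.3 to 23.4). This separation was shared by 2 of the 31 members compared, the other being Ccne1, and by 2.12% of all protein-coding genes compared. For Ccne1 every HFD library but WT-HFD replicate 3 (7.15) lay at the floor, raised to 6.92 on this scale. WT-NCD replicate 3, with 14.5% of its TPM in protein-coding genes, had all its values raised here, Cdt1 from 6.07 TPM to 41.7. Its Plk1 (41.3) and Aurka (40.7) also exceeded every HFD library, though its Pcna and Mki67 did not. Its place above HFD was thus not particular to Cdt1. With all 12 libraries Cdt1 was called on this scale (log2 fold change -1.09 ± 0.21 SE, limma adjusted p = 0.014), 1 of 31 members over 11448 genes, where 1.53% of all genes were called lower. Leaving out WT-NCD replicate 3 gave -1.12 ± 0.21 (adjusted p = 0.00846). It was the 1 called member of 30 in the latter fit, over 11243 genes, where 6.79% of all genes were called lower. The share of members called there was thus below that of all genes, and Cdt1 is the most extreme member of a list. The next estimates were Ube2c at -0.79 ± 0.36 (adjusted p = 0.155), Mcm7 at -0.67 ± 0.21 (0.0557), Mcm5 at -0.66 ± 0.23 (0.0725), Mcm6 at -0.66 ± 0.23 (0.0769) and Ccnb2 at -0.65 ± 0.20 (0.0532). Without Casp11-/- NCD replicate 2 as well, 7 of 30 members were called lower (5 replication, 2 mitosis), where 20.8% of all genes were.

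By contrast, Pcna per 1000000 protein-coding TPM was 147, 147 and 72.6 in WT-NCD, 99.6, 125 and 142 in WT-HFD, 178, 98.1 and 130.1 in Casp11-/- NCD and 103, 80.7 and 119 in Casp11-/- HFD, and Mki67 was 48.1, 35.1 and 8.92 in WT-NCD, 41.6, 26.9 and 59.4 in WT-HFD, 42.5, 28.5 and 46.5 in Casp11-/- NCD and 29.5, 37.3 and 40.6 in Casp11-/- HFD. In both genes HFD libraries lay among NCD libraries, and the highest Mki67 value was that of WT-HFD replicate 3. Ube2c was 49.1, 47.5 and 98.2 in WT-NCD, 31.4, 12.7 and 38.1 in WT-HFD, 45.0, 28.6 and 24.2 in Casp11-/- NCD and 44.2, 7.78 and 13.4 in Casp11-/- HFD, with 3 of the 6 HFD libraries within the range of the NCD libraries and WT-NCD replicate 3 at the top.

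**Figure D4:**
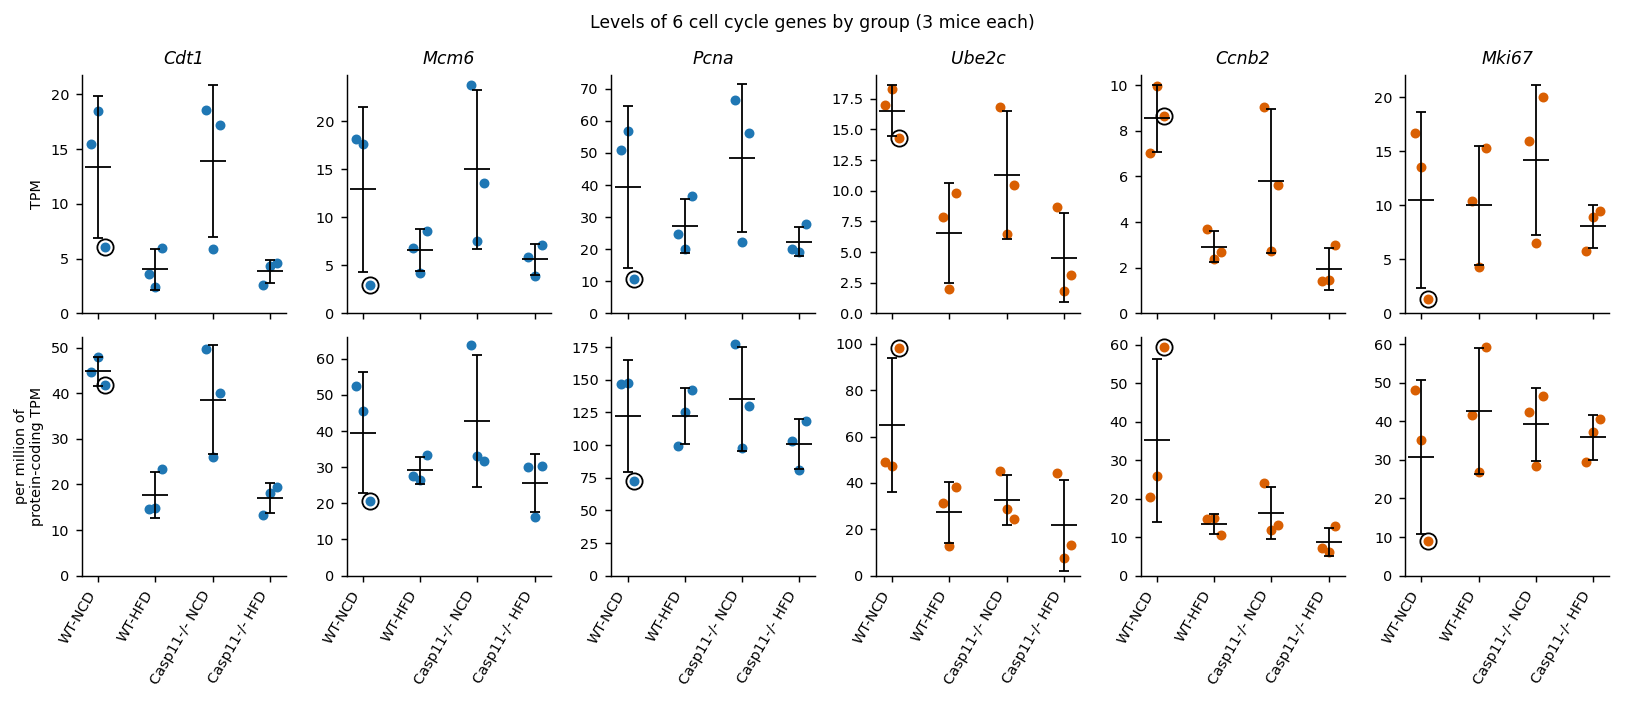
Level of Cdt1, Mcm6 and Pcna (replication, blue) and Ube2c, Ccnb2 and Mki67 (mitosis, orange) in each library, in TPM (upper panels) and per 1000000 protein-coding TPM (lower panels), by group (x axis). Points are mice, bars are the mean and SD of 3 mice, and circles mark WT-NCD replicate 3. Cdt1 is the one of the 6 whose NCD points all lie above its HFD points on the lower scale, 25.9 to 49.7 against 13.3 to 23.4.

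The sums of both classes, and their ratio, overlapped between the diets. Summed over its 18 members, replication was at 188, 216 and 90.6 TPM in WT-NCD, 89.9, 60.5 and 117 in WT-HFD, 256, 85.9 and 193 in Casp11-/- NCD and 78.6, 63.0 and 98.1 in Casp11-/- HFD. The 22 mitosis members summed to 115, 122 and 99.5 TPM in WT-NCD, 67.6, 36.6 and 81.0 in WT-HFD, 120, 51.7 and 109 in Casp11-/- NCD and 60.8, 40.8 and 53.9 in Casp11-/- HFD. The ratio of the sums, replication over mitosis, was 1.63, 1.77 and 0.91 in WT-NCD, 1.33, 1.65 and 1.45 in WT-HFD, 2.12, 1.66 and 1.77 in Casp11-/- NCD and 1.29, 1.54 and 1.82 in Casp11-/- HFD. WT-NCD replicate 3 was the only library with more mitosis than replication TPM. Without it the ratio was 1.79 ± 0.20 (SD, n = 5) on NCD and 1.51 ± 0.20 (SD, n = 6) on HFD, and the ranges of 1.63 to 2.12 and 1.29 to 1.82 overlapped.

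**Figure D5:**
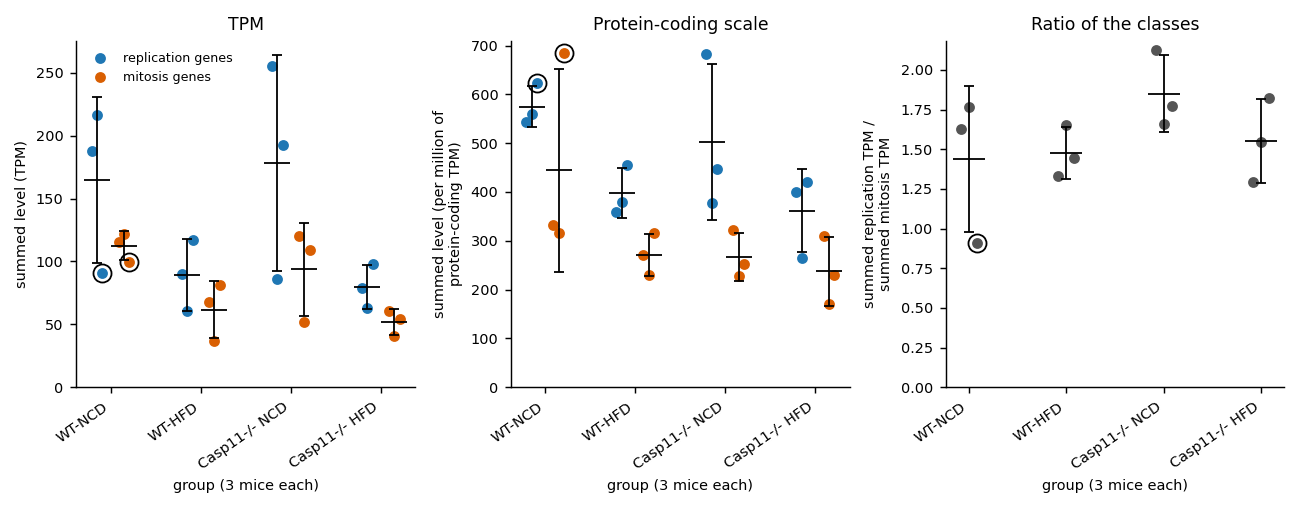
Summed level of the 18 replication genes (blue) and 22 mitosis genes (orange) by group, in TPM (left) and per 1000000 protein-coding TPM (middle), and the ratio of the sums in TPM (right). Points are mice, bars are the mean and SD of 3 mice, and circles mark WT-NCD replicate 3, whose ratio of 0.91 is the lowest.

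On the protein-coding scale, the replication sum was 522 ± 117 per 1000000 (SD, n = 5) on NCD without WT-NCD replicate 3 and 380 ± 65.9 (SD, n = 6) on HFD, and the mitosis sum 290 ± 47.2 and 254 ± 55.2. Both pairs of ranges overlapped, at 377 to 684 against 264 to 456 and at 227 to 333 against 171 to 315. Median log2 fold changes without that library were -0.98 for replication and -0.68 for mitosis genes in TPM, beside -0.39 for all genes. On the protein-coding scale they were -0.42 and -0.18, beside -0.10. Relative to all genes the classes therefore stood at -0.59 and -0.29 in TPM and at -0.32 and -0.09 on the protein-coding scale. The classes also differed in level. In the TPM fit without WT-NCD replicate 3, of genes with a mean above 5 TPM, a limit set after the data were seen, 6 of 9 replication and 1 of 4 mitosis genes were called and the medians were -1.09 and -0.77. Of those at or below it, 3 of 8 and 3 of 16 were called and the medians were -0.72 and -0.68. In that fit 17.3% of all genes, whatever their level, were called lower. The share among all genes of the same level was not taken, so these counts have no background of their own level. The difference between the classes was not tested, since genes are not replicates.

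Within wild type mice, 35 of 37 members were lower on HFD, where 14672 of 19498 genes were. At an unadjusted p under 0.05 by limma, 10 of 37 members were lower, where 1223 of 19498 genes were. After adjustment 0 members were called, where 0.113% of all genes were called. The medians were -0.79 for replication and -0.72 for mitosis genes, beside -0.51 for all genes. Within Casp11-/- mice, 36 of 37 members were lower, where 13074 of 19498 genes were, and 0 were called, where 0% of all genes were. At an unadjusted p under 0.05, 5 of 37 members were lower, where 1431 of 19498 genes were. The medians were -0.92 for replication and -0.56 for mitosis genes, beside -0.43 for all genes. Without WT-NCD replicate 3 both counts of called members stayed at 0, where 2.04% of all genes were called lower in wild type and 0.986% in Casp11-/- mice. At an unadjusted p under 0.05, 13 members in wild type and 11 in Casp11-/- mice were lower, where 2563 and 4353 of 17950 genes were. Cdt1 was then at -1.90 ± 0.56 (adjusted p = 0.0838) in wild type and -1.51 ± 0.50 (0.115) in Casp11-/- mice.

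No member differed between the genotypes by the test. On NCD, 0 of 37 members were called between Casp11-/- and WT mice and 0 had an unadjusted p under 0.05, where 0% of all genes were called. The medians were 0.04 for replication and -0.32 for mitosis genes, beside 0.04 for all genes. Without WT-NCD replicate 3 they were -0.28 and -0.36, beside 0.08, so the gap between the classes rested largely on that library. On HFD 0 members were called and 0 had an unadjusted p under 0.05, where 0% of all genes were called, with medians of -0.08 and -0.19, beside -0.02. The interaction, which asks whether the diet difference depended on genotype, also called 0 members (0 at an unadjusted p under 0.05), where 0% of all genes were called. Its medians were -0.05 and 0.14, beside -0.03 for all genes, and without WT-NCD replicate 3 they were 0.18 and 0.19, beside -0.12. With all 12 libraries the interaction was -0.05 ± 0.78 SE for Cdt1 and -0.89 ± 1.08 SE for Mki67. A dependence of the size of the diet estimates themselves was thus not detectable with 3 mice a group. The Mki67 value rested on WT-NCD replicate 3: without it the lowest interaction of any mitosis gene was -0.47.

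Other genes of the cycle also had lower estimates on HFD in TPM, as did 86% of all genes tested. With all 12 libraries, 31 of 31 other replication genes and 42 of 42 other mitosis genes had lower estimates on HFD. Limma called 0 and 0 of them over both genotypes, where 0.513% of all genes were called lower. At an unadjusted p under 0.05, 13 and 13 were lower, where 2956 of 19498 genes were. The smallest p was that of Prim1, the primase subunit, among the other replication genes (-1.15 ± 0.33, adjusted p = 0.183) and of Cdca3 among the other mitosis genes (-1.05 ± 0.26, 0.135). Without WT-NCD replicate 3, 7 of 31 and 8 of 39 were called lower, where 17.3% of all genes were. They included 2 genes chosen after their values were seen, Pold1, the catalytic subunit of polymerase delta (-1.65 ± 0.38, 0.00756), and Cdc25b, the phosphatase that activates Cdk1 (-2.17 ± 0.40, 0.000931). On the protein-coding scale without that library, 1 of 23 and 4 of 21 were called lower, where 6.79% of all genes were, again with Pold1 (-1.08 ± 0.22, 0.0115) and Cdc25b (-1.55 ± 0.26, 0.00564). Pold1 was at 10.3, 12.98 and 2.87 TPM in WT-NCD, 2.76, 1.94 and 4.82 in WT-HFD, 15.1, 5.24 and 14.9 in Casp11-/- NCD and 1.74, 2.43 and 4.48 in Casp11-/- HFD. Cdc25b was at 34.7, 30.5 and 3.63 TPM in WT-NCD, 5.72, 3.43 and 9.12 in WT-HFD, 38.4, 8.85 and 41.9 in Casp11-/- NCD and 4.46, 5.82 and 5.70 in Casp11-/- HFD. The other 3 called there were Cdca3, Racgap1 and Cdca8.

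Of genes that act before S phase 5 of 7, and of genes that hold it back 12 of 14, had lower estimates on HFD in TPM, where 86% of all genes did. With all 12 libraries limma called 0 of 7 genes that act before S phase and 0 of 14 genes that brake the cycle, where 0.513% of all genes were called lower. The former list held G1 cyclins and kinases together with Myc. At an unadjusted p under 0.05, 2 and 2 genes of the lists were lower, where 2956 of 19498 genes were. The smallest p belonged to Myc (-1.58 ± 0.58, limma adjusted p = 0.223) and to the CDK inhibitor Cdkn2c (-0.93 ± 0.30, 0.2). Without WT-NCD replicate 3, 2 of 7 (Myc at -2.01 ± 0.42 and the D-type cyclin Ccnd3 at -1.22 ± 0.39) and 7 of 14 brakes were called lower, the latter including the antiproliferative Btg1 (-1.36 ± 0.38) and, like Ccnd3 and Btg1 named after the values were seen, the CDK inhibitor Cdkn1b (-1.11 ± 0.38), where 17.3% of all genes were called lower. On the protein-coding scale 1 of 7 (Myc, -1.39 ± 0.37) and 0 of 14 were called without that library, where 6.79% of all genes were called lower.

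Markers of several cell types moved with diet beside these genes. Without WT-NCD replicate 3, limma called 17.3% of all genes lower on HFD and 192 of 17950 higher. All 7 B cell markers were called lower in that fit, and their sum was 427 to 1715 TPM in 5 NCD and 136 to 298 TPM in 6 HFD libraries. All 6 plasma cell markers were called lower (333 to 3097 against 93.1 to 269 TPM), as were all 6 NK cell markers (265 to 611 against 89.2 to 159 TPM) and 5 of 9 T cell markers (152 to 624 against 89.3 to 258 TPM). Of the erythroid precursor markers, 3 of 4 tested were called lower (508 to 11259 against 172 to 460 TPM). In the other direction, 9 of 12 macrophage markers (91.3 to 616 against 352 to 1011 TPM) and 4 of 6 endothelial markers (89.4 to 354 against 168 to 934 TPM) were called higher. None of 6 hepatocyte markers was called, and their sum was 5980 to 22281 against 8293 to 16559 TPM. Lower calls were made for 1 of 6 monocyte and 2 of 10 neutrophil and precursor markers. Casp11-/- HFD replicate 2 held 3999 TPM of the neutrophil and precursor markers against 105 to 415 TPM in the other HFD libraries. With all 12 libraries, 6 of 12 macrophage markers were called higher and 0 markers of the other lists were called, where 8 of 19498 genes were called higher and 100 lower. On the protein-coding scale without WT-NCD replicate 3, 7 of 7 B cell, 5 of 6 plasma cell, 4 of 6 NK cell and 0 of 7 T cell markers were called lower and 10 of 12 macrophage markers higher. On that scale 5 of 6 endothelial and 1 of 6 hepatocyte markers were also called higher. Called lower were 2 of 4 erythroid precursor, 2 of 9 neutrophil and precursor and 0 of 6 monocyte markers. There 6.79% of all genes were called lower and 701 of 11243 higher. The part of these shifts in cell makeup in the values of the cell cycle genes was not tested.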

How the data were processed

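Total RNA of the liver immune cell fraction of 12 mice was made into stranded libraries with depletion of ribosomal cDNA, and the authors aligned the reads with STAR to mm10 (GRCm38.p6) and exported TPM from Qlucore. The deposited TPM values are treated as a score, because the total of every library exceeds the nominal one, with no value below the floor of 1.01 TPM. Counts and depth were not used here, and the version of STAR is not given in the sources used here. The 19498 genes exceeding the floor in 3 or more libraries entered limma 3.58.1 (R 4.3.3, variance trend on) as log2(TPM + 1), in 1 fit of all 12 libraries and 4 group means. P-values were Benjamini-Hochberg adjusted over all genes. The procedure was also run on simulated independent genes with planted changes larger than any member estimate of the full fit. That run does not show how often changes of the members' size are found. Alternatives left out each library, rescaled to protein-coding TPM, dropped the highest 1% of genes, changed the pseudocount (0.1) and the filter, fitted only the groups compared, and added a replicate block. In fits of rescaled values the floor of every library was raised to the highest rescaled floor. Each library is 1 mouse, so n counts mice. The 24 genes given in every library were the 2 of highest mean level in each of 8 role groups and those called in the full fit or without WT-NCD replicate 3. The members and lists were chosen with earlier results of these data known. Coordinates are from GENCODE M21 and promoters from RefSeq, both GRCm38.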

Additional observations from a re-analysis of the deposited data

How the results depend on the processing

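With all 12 libraries and the filter and scale of the report 0 members were called in any of the 6 comparisons, and leaving out each library in turn gave 0 to 13 called members for HFD against NCD over both genotypes (13 without WT-NCD replicate 3, 7 without Casp11-/- NCD replicate 2) and 0 in the other 5 comparisons. For HFD against NCD over both genotypes, 4 of 23 members were called among genes above the floor in every library (5.49% of all genes lower) and 1 on the protein-coding scale, with or without WT-NCD replicate 3. Without both libraries that stood apart, a choice made after seeing the data, counts were 29 (TPM) and 7 (protein-coding scale) over both genotypes, 3 and 1 in wild type (all genes lower, 5.78% and 1.34%), and 22 and 3 in Casp11-/- mice (46.1% and 17.9%). The cause of these differences was not tested. No source ties replicate numbers to a shared litter or day, and not every same-numbered pair deviated together: with 12 libraries r was over 0.1 in 7 of 18 pairs (median -0.11, against 0.09 for different numbers), and without WT-NCD replicate 3 in 8 of 15 (0.18 against -0.06). With a replicate block 0 members were called in each comparison, and with the replicate block and no WT-NCD replicate 3 the counts were 25 over both genotypes (35.6% of all genes lower), 2 in wild type (6.04%), 2 in Casp11-/- mice (5.97%) and 0 in the others. The replication median moved to -0.17 without the highest 1% of genes and to -1.16 without both libraries, and was -0.44 on the protein-coding scale, -0.42 there without WT-NCD replicate 3 and -0.47 there without both. The mitosis median moved to -0.30 on the protein-coding scale, -0.18 there without WT-NCD replicate 3, -0.24 there without both libraries, and -0.079 without the highest 1% of genes. Signs turned for Mki67 (0.24 on the protein-coding scale, 0.30 without the highest 1%, and -0.66 to 0.071 when single libraries were left out, above 0 without WT-NCD replicate 1 or 2 or WT-HFD replicate 2), Top2a (0.035 and 0.21), Mcm3 (0.17 without the highest 1%), Rrm1 (0.19), Pcna (0.28), Ccnb1 (0.074), Kif11 (0.16) and Kif23 (0.19), and for Cenpe (0.046) without Casp11-/- NCD replicate 3. On the protein-coding scale without WT-NCD replicate 3 Kif11 was at 0.077 and Kif23 at 0.13, and without both libraries at 0.071 and 0.14. Over all genes, calls over both genotypes were 8 higher and 100 lower in TPM, 192 and 3097 without WT-NCD replicate 3, 320 and 175 on the protein-coding scale, 701 and 763 there without that library, and 74 and 14 without the highest 1%. Depth is unknown, so a value at the floor does not show that a gene was silent.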
